A study of Danio rerio with 16 samples.

Results

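Osteoblasts of the regenerating zebrafish caudal fin were compared between 4 and 0 days post-amputation (dpa) by whole genome bisulfite sequencing (WGBS), which reads the methylation of each CpG site. The comparison used 4 of the 16 libraries of the series, namely 2 of sp7+ cells at 4 dpa and 2 of sp7+ cells at 0 dpa, chosen by their labels. All fish were adults of the strain Tg(sp7:EGFP), in which the regulatory regions of sp7, an osteoblast transcription factor gene, drive EGFP in differentiating and mature osteoblasts. Cells at 4 dpa were sorted from the regenerate of an amputated fin and cells at 0 dpa from the uninjured fin, each library from a pool of fish, and EGFP-positive cells made up the sp7+ sort. The remaining libraries were sp7- cells (EGFP-negative) at 4 and 0 dpa and unsorted tissue at 0, 1, 2 and 4 dpa, with 2 libraries in each group. The unsorted libraries are called whole fin below. By the paper they were uninjured fin at 0 dpa and, at later times, samples of regenerating fin with blastema and wound epidermis. By the methods both sorts were taken from fish gathered for a replicate, so a sp7+ and a sp7- library of one time point and number may come from the same fish. Regenerate and uninjured fin were dissected as different tissues. By the methods, uninjured fins also had a collagenase digestion that regenerates did not have, and more regenerates than fins were pooled per replicate. Time after amputation, dissected tissue, digestion and pool size therefore cannot be told apart in the sorted libraries. Time and tissue cannot be told apart in the unsorted ones. The identity of the sorted cells was not checked here, since the files hold CpG positions only and no gene annotation of their genome build (GRCz10) was used. For the same reason regions are given below by position, without genes or sequence.

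The genome was divided into 500 bp tiles, and the level of a tile was the methylated share of all its calls, where a call is 1 read covering 1 CpG. Of 2631724 tiles with a CpG, 1969223 (74.8%) had 10 or more calls in each of the 4 sp7+ libraries and were kept. They held 85.5% of the CpGs. The median tile had 155 and 82 calls in the sp7+ libraries of 4 dpa, against 105 and 73 calls in those of 0 dpa.

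Osteoblasts are the bone-forming cells of the fin rays. After amputation, osteoblasts near the cut lose features of mature bone cells, divide and enter the blastema, the mass of proliferating cells from which new rays grow. CpG methylation is copied onto the new DNA strand at each cell division, most vertebrate CpGs carry it, and promoters and active regulatory elements are known for low levels of it. A cell mixture or a cell population with unequal copies gives an intermediate level.

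The first question was whether the level of the genome as a whole differed. Over all calls, 77.3% and 76.8% were methylated in the sp7+ libraries of 4 dpa, against 80.3% and 78.9% in those of 0 dpa. Both libraries of 4 dpa thus lay below both of 0 dpa, with means of 77.0% ± 0.353 and 79.6% ± 0.961 (SD, n = 2 each) and a difference of -2.54 percentage points. The two-sided exact permutation test gave p = 0.333, which is the smallest value that 2 against 2 libraries allow. In sp7- cells the difference was -1.25 points (exact permutation p = 0.667) and in whole fin -0.827 points (exact permutation p = 0.333). Exact permutation p-values here and below rest on the spread between pools of fish, of which each group had 2. P-values of the single-tile fit below also borrow spread from the sp7- libraries and from other tiles.

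Averaged over tiles instead of calls, the sp7+ libraries had levels of 75.8% and 75.6% at 4 dpa, against 77.8% and 77.5% at 0 dpa. The mean tile difference was -1.93 points and the median -1.82 points, and 67.0% of tiles were lower at 4 dpa. Most tiles moved little, with 87.5% within 10 points and 99.5% within 25 points of no difference. The share of tiles at high levels was smaller at 4 dpa. Tiles at 90% or more made up 22.7% and 24.4% of all tiles at 4 dpa, against 32.6% and 32.8% at 0 dpa, and tiles between 25 and 75% made up 27.5% and 28.3% at 4 dpa, against 22.0% and 22.9% at 0 dpa. At the other end, tiles below 10% made up 2.95% and 3.03% at 4 dpa, against 3.35% and 3.36% at 0 dpa. The tile levels were therefore less spread at 4 dpa, with an SD over tiles of 20.8 and 21.3 points, against 22.0 and 22.2 points at 0 dpa. With all libraries thinned at random to the calls of the shallowest sp7+ library, the share at 90% or more was 24.4% and 24.6% at 4 dpa and 33.7% and 32.8% at 0 dpa.

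The change was then followed by the level from which a tile started. A tile that reads low by chance in a library will read higher in the next, so tiles were binned by the level of 1 library of 0 dpa and the change was taken from the other, in both orders. This gave 4 values per bin, which share libraries and are given as a description. Tiles that started at 0 to 10% had a level of 5.72% at 4 dpa, against 4.50% at 0 dpa, and changed by 1.22 ± 0.156 points (SD over the 4 pairs). The size of this change depended on the averaging, with 0.541 points when the calls of the bin were summed and 0.732 points in 1000 bp tiles. The upward change was largest in tiles that started at 10 to 20%, with 21.5% at 4 dpa against 17.3% at 0 dpa, a change of 4.19 ± 0.215 points. It was 3.38 points in the bin of 20 to 30% and 2.01 points in that of 30 to 40%. In these 4 bins all 4 pairs were higher at 4 dpa.

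Near the middle the direction turned. Tiles at 40 to 50% changed by 0.44 ± 0.611 points, with pairs between -0.397 and 1.02 points, so that the change was smaller than the spread between pairs. All bins above it were lower at 4 dpa in all 4 pairs, by -1.07 points at 50 to 60%, -2.13 points at 60 to 70%, -2.69 points at 70 to 80% and -2.62 points at 80 to 90%. Tiles at 90 to 100%, of which there were 642567 and 645915, had 89.9% at 4 dpa against 92.1% at 0 dpa, a change of -2.19 ± 0.0543 points. Binned by the level at 4 dpa in the same way, the changes had the same sign but the low bins moved less. They were 0.284 points at 0 to 10%, 2.07 points at 10 to 20%, 2.90 points at 20 to 30%, 0.0149 points at 40 to 50% and -1.79 points at 90 to 100%.

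The sp7- cells took a similar course over the bins, with a change of 3.69 points at 10 to 20%, 0.71 points at 40 to 50% and -1.95 points at 90 to 100%. Their pairs lay farther apart, for example between -3.57 and -1.33 points at 70 to 80%, where the sp7+ pairs lay between -3.15 and -2.26 points. The 2 sp7- libraries of 4 dpa differed from each other, at 78.5% and 76.1% of all calls.

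**Figure D1:**
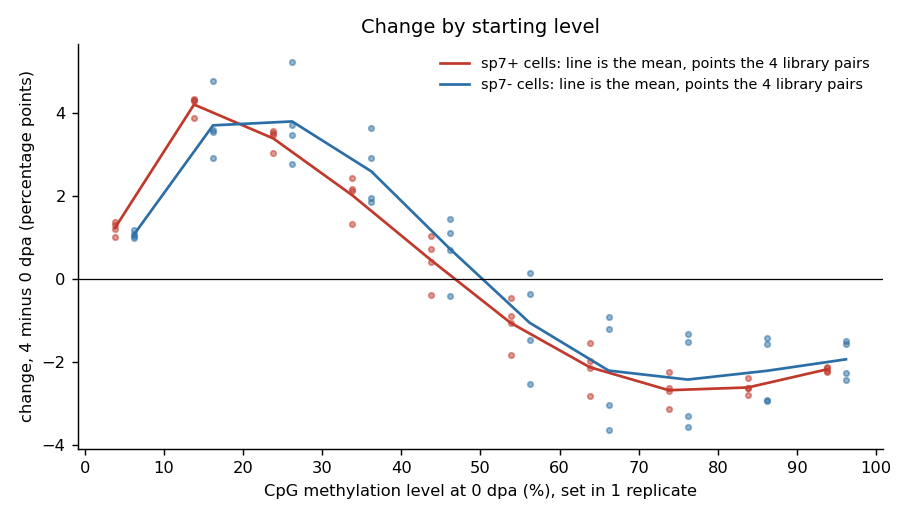
Change in tile level (4 minus 0 dpa, percentage points) against the level at 0 dpa, in bins of 10 points set in 1 library of 0 dpa and measured against the other. Lines give the mean and points the 4 library pairs, in sp7+ cells (red) and sp7- cells (blue), and both lines lie above 0 below 40% and below 0 above 50%.

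Among tiles that started low in sp7+ cells, the upward change varied with the level that the same tile had in sp7- cells of the uninjured fin. Tiles at 0 to 20% in both cell types (68109 and 69546 tiles in the 2 orders) had 5.73% in sp7+ cells at 4 dpa against 5.09% at 0 dpa, a change of 0.642 ± 0.12 points. Where sp7- cells were at 40 to 60% the same starting class had 30.5% at 4 dpa against 20.9% at 0 dpa, a change of 9.61 ± 0.252 points. Where sp7- cells were at 60 to 80% it changed by 12.2 ± 0.393 points, and where they were at 80 to 100% by 13.7 ± 1.48 points, over 122 and 126 tiles. Within this row the 4 pairs of neighbouring classes did not overlap up to 60 to 80%, while the pairs of the last class (11.9 to 15.04 points) overlapped those before it (11.8 to 12.7 points).

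Tiles that started high showed the reverse order. Tiles at 80 to 100% in both cell types had 87.7% in sp7+ cells at 4 dpa against 89.9% at 0 dpa, a change of -2.16 ± 0.0622 points. Where sp7- cells were at 60 to 80% the change was -3.78 ± 0.22 points, and at 40 to 60% it was -5.64 ± 0.486 points. The change in tiles that both cell types held at 80 to 100% was nearly as large in sp7- cells, at -2.11 points. In the tiles at 0 to 20% in sp7+ cells, sp7- cells changed as well, by 1.81 points where they were themselves at 0 to 20%, 7.41 points at 20 to 40%, 8.66 points at 40 to 60%, 5.54 points at 60 to 80% and 0.0127 points at 80 to 100%, against 0.642, 6.03, 9.61, 12.2 and 13.7 points in sp7+ cells. The difference between the cell types was not tested in these classes. The sp7+ change thus moved with the sp7- level of 0 dpa, but so did the measured sp7+ level of 0 dpa. In the sp7+ class of 0 to 20% it was 5.09%, 16.5%, 20.9%, 24.4% and 28.5% from the lowest to the highest sp7- class. In the sp7+ class of 80 to 100% it was 89.9%, 81.5% and 74.7% in the sp7- classes from 80 to 100% down to 40 to 60%. The 2 starting levels were not separated here. The share of other cells in each sort was not measured here, and its part in these changes was not tested.

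**Figure D2:**
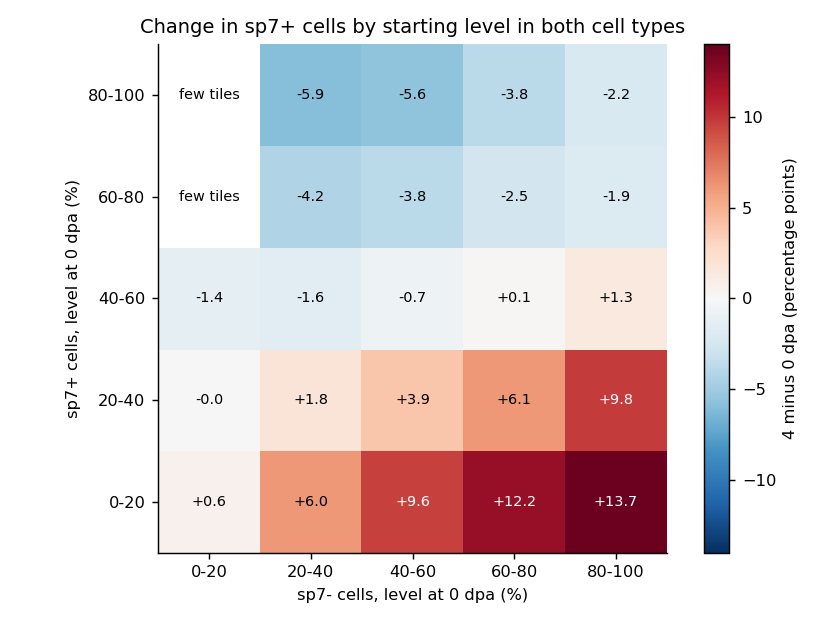
Change in sp7+ cells (4 minus 0 dpa, percentage points, colour and number in each cell) by the level at 0 dpa in sp7+ cells (rows) and in sp7- cells (columns), both in classes of 20 points set in 1 replicate and measured in the other. Cells with under 100 tiles in either order carry the words few tiles and no value, and the bottom row goes up to 13.7 points where sp7- cells were at 80 to 100%.

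Wide gaps between sp7+ and sp7- cells were then counted over the 1870252 tiles with 10 or more calls in every sorted library. The sp7+ cells lay more than 25 points below sp7- cells in both replicates in 4954 tiles (0.265%) at 4 dpa. At 0 dpa this held for 6606 tiles (0.353%). The sp7+ cells lay more than 25 points higher in both replicates in 1569 tiles (0.0839%) at 4 dpa, against 1045 (0.0559%) at 0 dpa. With 50 or more calls in every library (1054258 tiles) these counts were 1651 against 2248 and 413 against 199. With all sorted libraries thinned to equal calls (1753376 tiles) they were 4847 against 5928 and 1858 against 1218. Over the 1870252 tiles the gap had an SD of 7.11 (4 dpa) and 6.96 points (0 dpa). The part of the gap shared by both replicates had an SD of 4.28 (4 dpa) and 4.40 points (0 dpa). The counts thus describe a small share of tiles.

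The number of CpGs in a tile was compared next, since CpG-rich DNA in vertebrates includes the CpG islands of many promoters. Tiles of 1 to 3 CpGs had 71.1% and 70.7% at 4 dpa, against 73.4% and 73.1% at 0 dpa, a change of -2.42 ± 0.29 points (SD over the 4 pairs, n = 152305 tiles). Tiles of 16 or more CpGs had 78.4% and 78.3% at 4 dpa, against 80% and 79.8% at 0 dpa, a change of -1.51 ± 0.136 points (n = 343982 tiles). The classes between them, of 4 to 7 and 8 to 15 CpGs, changed by -2.10 and -1.89 points. In every class both libraries of 4 dpa lay below both of 0 dpa. With all calls of a class summed in place of the mean over tiles, the change was -2.71 points for 1 to 3 CpGs and -2.54 points for 16 or more, which brought the 2 classes closer together. The sp7- cells had the same order, at -2.45, -2.05, -1.63 and -1.11 points from sparse to dense tiles. Their pairs ran from -3.36 to -1.53 points at 1 to 3 CpGs and from -1.67 to -0.550 points at 16 or more.

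Split by starting level, the difference between sparse and dense tiles in sp7+ cells was widest in DNA of low methylation. Tiles of 1 to 3 CpGs that started below 25% changed by 3.68 ± 0.386 points and those of 4 to 7 CpGs by 3.80 ± 0.25 points, whereas those of 16 or more CpGs changed by 0.291 ± 0.137 points. The mean of low-methylated CpG-rich tiles thus moved by at most 0.402 points in any of the 4 pairs. The class below 25% is wide, as tiles of any CpG number changed by 1.22 points at 0 to 10% and 4.19 points at 10 to 20%. Starting levels within it were not compared between the CpG classes. Among tiles that started at 75% or more, the change was -3.36 ± 0.158 points for 1 to 3 CpGs, -2.83 points for 4 to 7, -2.37 points for 8 to 15 and -1.72 ± 0.0919 points for 16 or more. The pairs of these 4 classes did not overlap. Sparse tiles also have fewer calls, with a median of 21 in the shallowest sp7+ library against 204 for 16 or more CpGs among the tiles tested below.

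**Figure D3:**
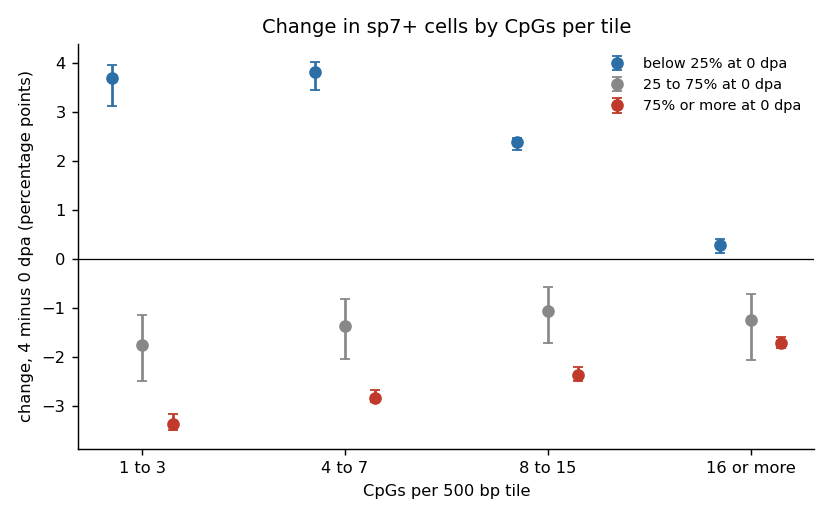
Change in sp7+ cells (4 minus 0 dpa, percentage points) by CpGs per 500 bp tile, for tiles below 25% (blue), at 25 to 75% (grey) and at 75% or more (red) at 0 dpa. Points are the mean and bars the lowest and highest of the 4 library pairs, and the blue points go from 3.68 points at 1 to 3 CpGs to 0.291 points at 16 or more.

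The lower level at 4 dpa was spread over the genome. All 25 chromosomes were lower at 4 dpa in all 4 pairs of libraries, by -1.57 points on chromosome 2 to -2.25 points on chromosome 4, with a median of -1.92 points. Chromosome 4 had 75.6% and 75.4% at 4 dpa, against 77.9% and 77.6% at 0 dpa, and chromosome 2 had 75.8% and 75.6% at 4 dpa, against 77.5% and 77.1% at 0 dpa. In windows of 5 Mb with 1000 or more tiles, all 277 were lower in all 4 pairs, with quartiles of -2.13 and -1.79 points. The 5 windows with the largest downward change lay on chromosome 4 between 35 and 65 Mb, within the long arm of this chromosome, which is known for its repeats and heterochromatin. There the window of 45 to 50 Mb had 79.7% and 79.2% at 4 dpa, against 82.5% and 81.9% at 0 dpa, a change of -2.74 ± 0.424 points. The smallest downward change, of -1.10 ± 0.948 points, was in the window of 5 to 10 Mb of chromosome 20, where the pairs ran from -1.97 to -0.228 points. The sp7- cells changed by -1.95 points on chromosome 4 and -1.41 points on chromosome 2.

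Single tiles were then tested with a weighted fit of the arcsine square root of the level, with 1 mean per group and the spread shared over the 8 sorted libraries (variances shrunk with limma, Benjamini-Hochberg adjustment over 1870252 tiles with 10 or more calls in each of them). At an adjusted p under 0.05, 2905 tiles differed between 4 and 0 dpa in sp7+ cells, 1006 higher and 1899 lower. Requiring a difference above 25 points left 408 gain tiles, 0.0218% of those tested, and 440 loss tiles, 0.0235%. The same fit without weights for coverage called no tile in either direction, with 2711 above 25 points and 3673 below -25 points at an unadjusted p under 0.05 and a smallest adjusted p of 0.457, while a quasi-binomial test of the calls gave 684 gain and 749 loss tiles. The counts also rested on every sp7+ library. When 4 dpa replicate 1, 4 dpa replicate 2 or 0 dpa replicate 1 was left out, no tile was called, although between 3981 and 7009 tiles above 25 points and between 5621 and 12923 below -25 points had an unadjusted p under 0.05. Without replicate 2 of 0 dpa there were 3 gain tiles and 1 loss tile. The sp7- libraries entered through the spread and through the calls required of every tile tested. Both counts rose when either sp7- library of 4 dpa was left out, and fell when either sp7- library of 0 dpa was left out. With the median shift of all tiles removed, the counts were 794 gain and 197 loss tiles. Whether the change in a tile differed between sp7+ and sp7- cells was tested as an interaction. It gave 0 tiles with the limma-shrunk fit, with 88586 at an unadjusted p under 0.05 where 93513 would be the number under no difference, and a smallest adjusted p of 0.135.

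How well a single pair of libraries foretold the other was measured on all 1969223 tiles. Of 11049 tiles more than 25 points higher in replicate 1, 59.9% were also higher in replicate 2, against 37.3% of all tiles, and of 16947 chosen in replicate 2, 57.4% were higher in replicate 1, against 34.8% of all tiles. Of 14944 tiles more than 25 points lower in replicate 1, 63.6% were lower in replicate 2, against 61.4% of all tiles, and of 27051 chosen in replicate 2, 65.8% were lower in replicate 1, against 64.6%. Single-pair losses were thus lower in the other pair about as often as any tile, but by more, at a mean of -5.36 and -4.83 points against -1.92 and -1.94 points over all tiles. The shares were not matched for level. In the other library of 0 dpa the single-pair gains had a mean of 53.0% and 55.7%, against 77.5% and 77.8% over all tiles. Such tiles were shallow, with a median of 17 or 18 calls in their shallowest library against 67 over all tiles, and 2 replicates of the same time point also differed by more than 25 points in 22031 tiles at 4 dpa and 35363 tiles at 0 dpa. No source says that replicate numbers tie libraries of 4 and 0 dpa, so the pairs were also crossed. Crossed gains were higher in the other pair in 51.7% and 54.4%, against 36.2% and 36.9% of all tiles. Crossed losses were lower in 59.9% and 60.6%, against 62.8% and 62.4% of all tiles. Their mean change in the other pair was -3.66 and -3.05 points, against -2.17 and -1.70 points over all tiles.

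The gain tiles were mostly low at 0 dpa and reached an intermediate level. Their median was 45.3% and 46.7% in the sp7+ libraries of 4 dpa, against 14.4% and 15.8% in those of 0 dpa, and 313 of 408 started below 25%. The loss tiles had a median of 57.8% and 54.2% at 4 dpa, against 86.4% and 86.7% at 0 dpa, and 374 of 440 started at 75% or more. Of all tiles in the 2 libraries of 0 dpa, 3.35% and 3.36% lay below 10% and 2.03% and 2.06% at 10 to 25%. At 75 to 90% there were 39.9% and 38.9%, and at 90% or more 32.6% and 32.8%. A loss above 25 points cannot start below 25%, and a gain above 25 points cannot start above 75%. The contrast itself chose these tiles, so that their sp7+ levels are a description. The median change was 29.1 points in gain tiles and -28.8 points in loss tiles. Both sets had a median of 8 CpGs per tile. Gain tiles were called in 0.00998% of tiles of 1 to 3 CpGs, 0.0272% of those of 4 to 7, 0.0265% of those of 8 to 15 and 0.00533% of those of 16 or more, and loss tiles in 0.02%, 0.029%, 0.0257% and 0.00977%. Both were thus called most often in the middle classes, while calls per tile went up with the number of CpGs. They lay on all 25 chromosomes, with 8 to 26 gain tiles and 8 to 30 loss tiles on each. Chromosome 13 had the most gain tiles per 10000 tested, at 3.52, and chromosome 3 the most loss tiles, at 3.53.

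Most called tiles did not touch another called tile. Another tile called in the same direction lay beside 4 gain tiles (0.980%) and 10 loss tiles (2.27%). Of all tiles tested, 0.0218% were gain tiles and 0.0235% loss tiles. How many would touch under random placement was not counted. On the neighbouring tiles at 500 bp, the mean change in sp7+ cells was 4.49 and 5.18 points beside gain tiles and -5.71 and -6.92 points beside loss tiles. At 1000 bp it was -0.108 and -0.204 points beside gain tiles and -2.04 and -2.30 points beside loss tiles. Over all tiles kept, the mean was -1.93 points, so the tiles at 1000 bp from gain tiles still lay above it. Tiles 1000 bp wide gave 107 gain and 95 loss calls.

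**Figure D4:**
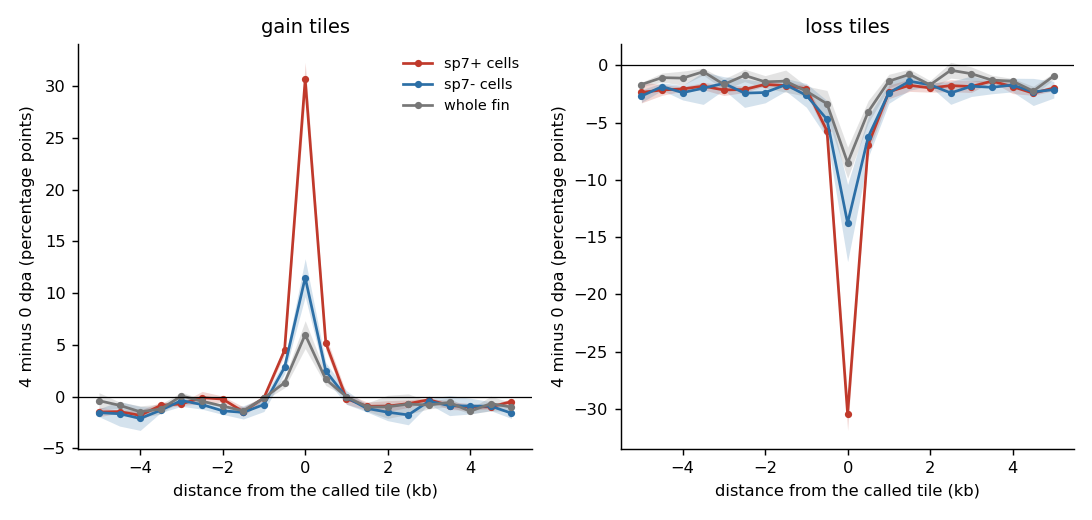
Mean change (4 minus 0 dpa, percentage points) in tiles up to 5 kb from gain tiles (left) and loss tiles (right), in sp7+ cells (red), sp7- cells (blue) and whole fin (grey). Bands span the lowest and highest library pair, and in all 3 sources the change at a called tile has mostly gone by 1 kb.

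Levels of sp7- cells and whole fin, which the choice did not compare, were then read at the same tiles. The sp7- libraries entered the choice through the spread and the calls required per tile, and may share fish with the sp7+ libraries. The sp7- cells had a mean of 59.5% and 63.0% at 4 dpa in gain tiles, against 49.9% and 49.7% at 0 dpa. In the 437 loss tiles with a call in every library they had 58.7% and 52.9% at 4 dpa, against 70.1% and 69.2% at 0 dpa. Of 408 gain tiles, 351 (86.0%) were higher at 4 dpa in sp7- cells, against 35.6% of all tiles tested, and of 440 loss tiles 385 (87.5%) were lower, against 64.3% of all. In whole fin, with 10 or more calls in each library, 286 of 384 gain tiles (74.5%) were higher at 4 dpa, against 42.3% of all tiles, and 310 of 409 loss tiles (75.8%) were lower, against 57.4%. Whole fin contains osteoblasts as well as the other cells. These shares were not matched for the level at 0 dpa. The median sp7- level at 0 dpa was 46.7% in gain tiles and 70.2% in loss tiles. Over all tiles it was 84.3% and 84.2% in the sp7- libraries of 0 dpa. The sp7- tiles that started at 40 to 50% changed by 0.71 points on average. Tiles at 0 to 20% in sp7+ and 40 to 60% in sp7- cells changed more in sp7- cells, by 8.66 points. The mean sp7- change of gain tiles was 11.5 points. Tiles at 80 to 100% in sp7+ and 60 to 80% in sp7- cells changed by -3.37 points in sp7- cells, against -13.9 points in loss tiles. How much of the excess over all tiles goes with the starting level was not tested.

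The mean level of gain tiles minus that of loss tiles put both directions into 1 value per library. In sp7- cells it was 0.865 and 10.2 points at 4 dpa, against -20.2 and -19.6 points at 0 dpa. Whole fin had -1.68 and -2.88 points at 4 dpa, against -17.7 and -17.0 points at 0 dpa. Averaged over both sources the difference was 20.2 points, with p = 0.0556 in a two-sided exact permutation test within source, the smallest value that its 36 arrangements allow. It was 25.4 points in sp7- cells and 15.1 points in whole fin. Tiles called in a fit of the 4 sp7+ libraries alone (678 gain and 756 loss tiles with a call in every library) gave 19.2 points, with 23.9 points in sp7- cells and 14.5 points in whole fin (exact permutation p = 0.0556). The 1086 gain and 1444 loss tiles past 25 points in both pairs, chosen without the fit, gave 11.7 points, with 14.9 points in sp7- cells and 8.50 points in whole fin. Gain tiles alone differed by 8.74 points and loss tiles alone by -11.5 points, each with an exact permutation p = 0.0556. In this test the values were not set against other tiles of the same starting levels. Over the time course of whole fin the value was -17.7 and -17.0 points at 0 dpa, -21.8 and -21.4 at 1 dpa, -10.8 and -12.0 at 2 dpa and then -1.68 and -2.88 at 4 dpa. At every time point the 2 libraries lay closer to each other than to those of the neighbouring time points. The tissue also differed, with uninjured fin at 0 dpa and regenerating fin at the later times.

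**Figure D5:**
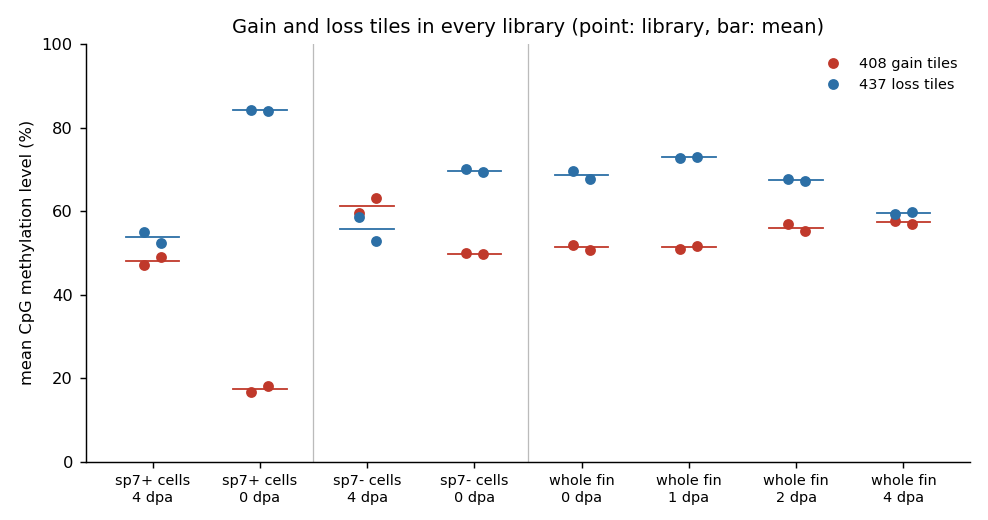
Mean CpG methylation level (%) of the 408 gain tiles (red) and 437 loss tiles (blue) in each library, with points for libraries and bars for group means. In sp7+ cells, whose contrast chose the tiles, gain tiles had 47.0 and 49.1% and loss tiles 55.1 and 52.4% at 4 dpa. At 0 dpa they had 16.8 and 18.0% against 84.3 and 84.0%. In whole fin the sets approach each other between 1 and 4 dpa.

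The levels of the 2 cell types were then set side by side at these tiles. At 0 dpa both sp7+ libraries lay below both sp7- libraries in 399 of 408 gain tiles, with a mean gap of -32.3 points, and above both in 361 of 440 loss tiles, with a mean gap of 14.5 points. At 4 dpa they lay below in 264 gain tiles and above in 28, with a mean gap of -13.2 points. In loss tiles at 4 dpa they lay above in 97 and below in 153, with a mean gap of -2.15 points. For comparison, the mean gap over all 1870252 tiles tested came to 0.237 (0 dpa) and 0.0372 points (4 dpa). How many of all tiles tested had their libraries in such an order was not counted. Since the rule chose gain tiles for a low sp7+ level at 0 dpa and loss tiles for a high one, these counts and gaps are a description.

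Single regions are named by size among called tiles with 50 or more calls in every sp7+ library, 10 in each direction, with positions on GRCz10 as deposited (whether they count from 0 or 1 was not settled). The region with the largest gain, chr6:19733000-19733499 with 9 CpGs, had 77.0% and 84.8% at 4 dpa, against 45.5% and 33.8% at 0 dpa, over 71 to 174 calls (limma-shrunk fit, adjusted p = 0.013). Its sp7- levels were 74.6% and 66.2% at 4 dpa, against 59.2% and 62.4% at 0 dpa. The deepest of the named gains, chr24:3453500-3453999 with 11 CpGs, had 50.6% and 47.8% at 4 dpa, against 10.9% and 15% at 0 dpa, over 249 to 421 calls, with the smallest adjusted p of the fit, 0.00491. In sp7- cells it was high at both times, with 72.3% and 76.4% at 4 dpa, against 69.0% and 64.3% at 0 dpa. A CpG-rich tile on the same chromosome, chr24:4006500-4006999 with 19 CpGs, had 47.3% and 55.8% at 4 dpa, against 12.6% and 10% at 0 dpa. At chr7:21453000-21453499 the libraries of 4 dpa were far apart, at 31.7% and 58.8%, against 5.83% and 5.80% at 0 dpa. Over the 10 named gains the change was 36.0 to 41.3 points. All 10 were higher at 4 dpa in sp7- cells, by 7.64 to 25.4 points, and 7 of 10 in whole fin. Of all tiles, 35.6% were higher in sp7- cells and 42.3% in whole fin.

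Among the named losses, chr3:35705500-35705999 with 5 CpGs had 17.05% and 23.4% at 4 dpa, against 53.7% and 76.4% at 0 dpa, over 55 to 88 calls. The region chr24:38996000-38996499 had 47.6% and 44.6% at 4 dpa, against 83.9% and 92.6% at 0 dpa, over 148 to 296 calls (limma-shrunk fit, adjusted p = 0.0092). The only named region of 2 called tiles, chr4:21127000-21127999 with 18 CpGs, had 54.97% and 41.3% at 4 dpa, against 83.0% and 88.0% at 0 dpa, and in sp7- cells 36.3% and 24.9% at 4 dpa, against 77.2% and 62.1% at 0 dpa. The loss at chr20:24153000-24153499 was deeper in sp7- cells, with 6.78% and 10.8% at 4 dpa, against 77.2% and 75.8% at 0 dpa, than in sp7+ cells, with 46.1% and 40.5% at 4 dpa, against 85.4% and 84.2% at 0 dpa. Whole fin there had 23.3% and 16.1% at 4 dpa, against 70.7% and 54.8% at 0 dpa. As given above, no tile passed the test of a difference in change between the cell types. One named loss went the other way in sp7- cells, chr7:6732000-6732499, with 25.7% and 39.5% in sp7+ cells at 4 dpa, against 73.3% and 66.2% at 0 dpa, and with 71.4% and 72.9% in sp7- cells at 4 dpa, against 59.8% and 63.0% at 0 dpa. Over the 10 named losses the change was -44.8 to -36.6 points, and 9 of 10 were lower at 4 dpa in sp7- cells and 9 of 10 in whole fin. Of all tiles, 64.3% were lower in sp7- cells and 57.4% in whole fin, and of all called loss tiles 87.5% and 75.8%.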

How the data were processed

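WGBS libraries were made with a bisulfite treatment and the TruSeq DNA Methylation Kit. The authors trimmed reads with Trim Galore 0.4.1, mapped them with Bismark 0.16.1 and Bowtie2 to GRCz10 changed at the variants of the strain, removed duplicates, and deposited for each CpG the count of reads and the count of methylated reads, not normalized. Each file lists the same 23997221 CpGs on 25 chromosomes. The sp7+ libraries held 220754053 to 471925247 calls. Calls in 1 tile can come from the same read, so that they are not independent, and deeper libraries give more precise levels.

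Calls were summed over 500 bp tiles with 10 or more calls per library (Python 3.11.15, numpy 2.4.6, scipy 1.17.1). The tile fit was written in Python, with variances shrunk by limma 3.58.1 under R 4.3.3. It was also run on simulated calls for tiles of chromosome 25, with larger changes than most called tiles had. The simulation held no genome-wide shift and drew each library separately. It therefore does not show how often a call is right in these data. A tile was called where the adjusted p lay under 0.05 and the groups differed by more than 25 points. Called tiles that touched or lay 1 tile apart were joined, and the 10 regions with the largest change in each direction were named where each sp7+ library had 50 or more calls and the groups did not overlap. Members, lists and tests were chosen with earlier results of these data known. No source ties libraries of 4 and 0 dpa by replicate number, while sp7+ and sp7- libraries of one time point and number may share fish. The fit treated all 8 sorted libraries as separate.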

Additional observations from a re-analysis of the deposited data

How the results depend on the processing

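The genome-wide change in sp7+ cells was negative under all alternatives run, at -1.93 points over tiles, -1.92 points over thinned tiles, -1.80 points over CpGs with 5 or more reads, and -3.22 to -1.86 points with single libraries left out. The 25 chromosomes were lower under both alternatives. The changes in tiles at 0 to 10%, 40 to 50% and 90 to 100% and in those of 1 to 3 and 16 or more CpGs kept their sign, and the other bins and classes were not rerun. Tiles at 0 to 10% changed by 0.732 points in 1000 bp tiles and 0.541 points with calls summed, those at 90 to 100% by -2.13 points at 20 or more calls and -1.91 points with calls summed. Tiles of 1 to 3 CpGs changed by -2.71 points with calls summed, and those of 16 or more by -2.54 points with calls summed and -1.82 points in 1000 bp tiles.

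Counts of called tiles depended on the settings. Gain and loss counts were 107 and 95 in 1000 bp tiles, 970 and 1766 above 15 points, 29 and 29 above 40 points, 684 and 768 with the 4 sp7+ libraries alone, 794 and 197 with the level shift removed, and 684 and 749 by the quasi-binomial test. Without weights both were 0 (limma-shrunk fit, with 2711 and 3673 at an unadjusted p under 0.05). Leaving out 1 library gave 0 to 711 gain and 0 to 814 loss tiles, where a lone library was assumed to vary like the other groups. With a replicate block they were 700 and 818. The deviations of same-numbered libraries correlated by 0.054 to 0.103. Between sp7+ and sp7- cells, which may share fish, the correlation was 0.103 at 0 dpa and 0.0616 at 4 dpa. Replicate variance in sp7+ cells was 1.35 (4 dpa) and 1.39 times (0 dpa) that of read sampling, which keeps such correlations low. They do not settle whether fish were shared. No source says that a number marks shared fish between 4 and 0 dpa. Leaving out tiles with over 3 times the median calls per CpG, chosen after seeing the data, gave 432 and 472.

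The share of single-pair gains higher in the other pair (main value 58.7%) was 52.5% at 5 calls, 68.6% at 20 calls, 53.1% with crossed pairs and 63.7% with the shift removed. That of losses (64.7%) was 60.4% at 5 calls, 71.4% at 20 calls, 62.0% above 40 points, 60.3% with crossed pairs and 59.8% with the shift removed. Crossed losses fell less often than all tiles, of which 62.8% and 62.4% were lower in the same pairs. For 5 or 20 calls and the removed shift, shares of all tiles were not counted. Gain minus loss in sp7- cells and whole fin was 11.7 points for tiles past 25 points in both pairs, 19.2 points for tiles called in the sp7+ libraries alone (chosen after seeing the data) and 17.9 to 22.6 points with single libraries left out. Chosen after seeing the data, the change in tiles below 20% in sp7+ and at 60% or more in sp7- cells was 12.4 points, and 14.3 points at 50 or more calls. Causes were not tested. Of all alternative values 45 moved, and the other 69 kept their direction, for results with a test, or moved by less than the spread of pairs or less than 1.5 times. With 2 pools per group, shallow tiles limit what single calls show.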
